A study of Mus musculus with 9 samples.

Results

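The genes described here are 39 markers of meningeal fibroblasts and components of the extracellular matrix, taken by gene symbol from a list of names. The rule itself uses no measured value, but the list was drawn up with earlier results of these data known. All 39 were among the 54513 gene symbols of the authors' table, and all 39 passed the filter on low counts that left 18690 genes for testing. The libraries came from tissue labelled as hippocampus of mice kept for 12 weeks on a high-fat diet, with 3 mice in each of 3 groups. In the Trp group the diet carried 0.5% by weight of added tryptophan. In the IPA group the mice were also given indole-3-propionic acid, a gut bacterial product of tryptophan, in saline by mouth each day at 100 mg/kg. In the HFD group the labels give the high-fat diet alone, and no library of chow-fed mice was among those analysed. The labels do not give strain, sex or age of the mice, or whether Trp and HFD mice had saline by mouth. The labels tie the table's column codes (HOB for Trp, HEB for IPA, WTB for HFD) to the samples without explaining them, so the groups rest on the labels alone.

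The meninges are the connective tissue sheaths of the brain, and their fibroblasts also follow vessels as they enter the tissue. These cells lay down fibrillar collagens, small proteoglycans and basement membrane proteins, carry solute transporters of the blood and cerebrospinal fluid border, and release retinoic acid and growth factors. In a dissected brain region they are a minor population, and the amount of pia or perivascular tissue taken along sets part of their RNA. Some of the genes are made by other cells too: type IV collagens by vessel cells, Ptgds by choroid plexus and oligodendrocytes, and Igf2 by choroid plexus. In bulk tissue, fewer cells of a type and less RNA per cell cannot be told apart.

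Levels are given as CPM (deposited counts per 1000000 counts of the library, after trimmed-mean scaling) when 1 gene is compared between libraries, and as the authors' FPKM, which are per gene length, when genes are compared with each other. Libraries held 40621084 to 50938746 counts and 23940 to 24947 detected genes, so that 3 counts corresponded to 0.0584 to 0.075 CPM. By mean FPKM over the 9 libraries, Ptgds was the most abundant member at 261, ahead of Mgp at 13.3, Igf2 at 9.60, Spp1 at 7.34 and Dcn at 4.45. The least abundant were Foxd1 at 0.0838 and Slc47a1 at 0.0938. A gene was called when edgeR's quasi-likelihood test gave a Benjamini-Hochberg adjusted p under 0.05 over all 18690 genes.

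The libraries differed from one another in these genes within groups as well as between them. HFD 3 held the highest value of 23 of the 39 members (59%), against 17.9% of all genes tested. IPA 3 held the lowest value of 14 members (35.9%), against 12.3% of all genes, and IPA 1 the lowest of 7. HFD 2, fed the same diet as HFD 3, was the highest library for 0 members and the lowest for 6. The mean log2 CPM over the 39 genes was 2.15, 2.22 and 1.77 in Trp libraries 1 to 3, 1.60, 1.91 and 1.46 in IPA libraries 1 to 3, and 2.14, 1.73 and 2.68 in HFD libraries 1 to 3. As group means this was 2.05 ± 0.24 in Trp, 1.66 ± 0.23 in IPA and 2.18 ± 0.48 in HFD (SD, n = 3 each), with the widest spread in HFD.

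**Figure D1:**
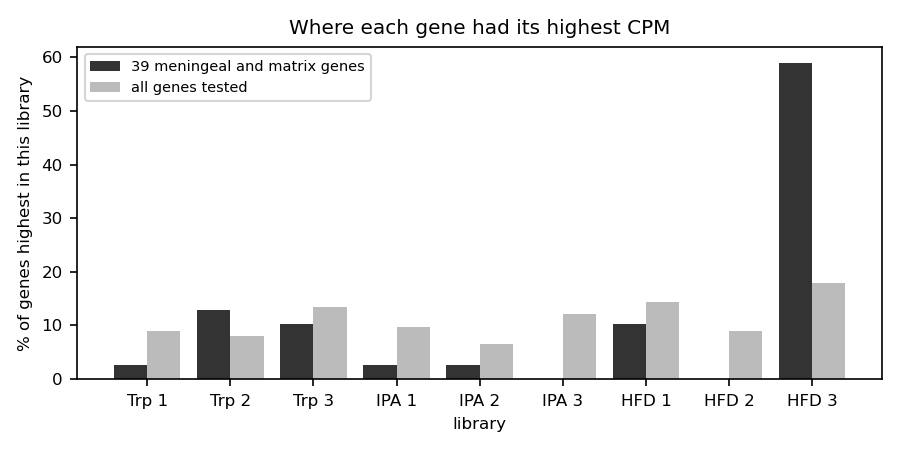
Share of genes (percent, vertical axis) whose highest CPM over the 9 libraries fell in each library (horizontal axis), for the 39 meningeal and matrix genes (dark bars) and for all genes tested (grey bars). HFD 3 held the highest value of 59% of the 39 genes and of 17.9% of all genes.

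HFD 3 also stood apart in other tissue markers. The summed level of the red cell genes was 233 to 383 CPM in Trp, 248 to 399 CPM in IPA, and 571, 732 and 2210 CPM in HFD 1, 2 and 3. Every HFD library thus lay above every Trp and IPA library in this sum. All 6 red cell genes tested were below a fold change of 1 against HFD in Trp (median log2 -1.83) and in IPA (-1.9), where 50.5% and 51.1% of all genes were. At an unadjusted p under 0.05, 5 of the 6 were lower in Trp (5.54% of all genes) and all 6 in IPA (5.46%), and none was called. The 14 oligodendrocyte markers summed to 16700 CPM in HFD 3 and to 8520 to 11100 CPM elsewhere. The 12 markers of striatal neurons summed to 841 CPM in HFD 3 and to 1730 to 3600 CPM in the other 8 libraries, while 10 markers of hippocampal neurons summed to 182 to 297 CPM in all 9. The mean log2 CPM of the hippocampal markers was 3.70, 1.79 and 1.74 in the Trp libraries, 1.83, 2.84 and 1.84 in the IPA libraries, and 3.16, 1.73 and 3.94 in the HFD libraries, each in the order 1 to 3. Their median log2 fold change was -1.15 for IPA against HFD, with 9 of 10 below 0, and -0.29 for Trp against HFD, with 8 of 10 below 0; none was called. None of the hippocampal markers was at 0 in any library, and the dentate granule cell gene Prox1 ranged over 10.3 to 42.3 CPM. Markers of striatal neurons were at substantial levels beside them in tissue labelled as hippocampus, with the dopamine receptor gene Drd2 at 24.0 to 115 CPM. All 12 striatal markers had a fold change above 1 against HFD in Trp (median log2 0.43) and in IPA (0.73), and none was called. Of all genes, 49.5% and 48.9% were above 1 in these comparisons. The part of these differences in the results below was not tested.

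**Figure D2:**
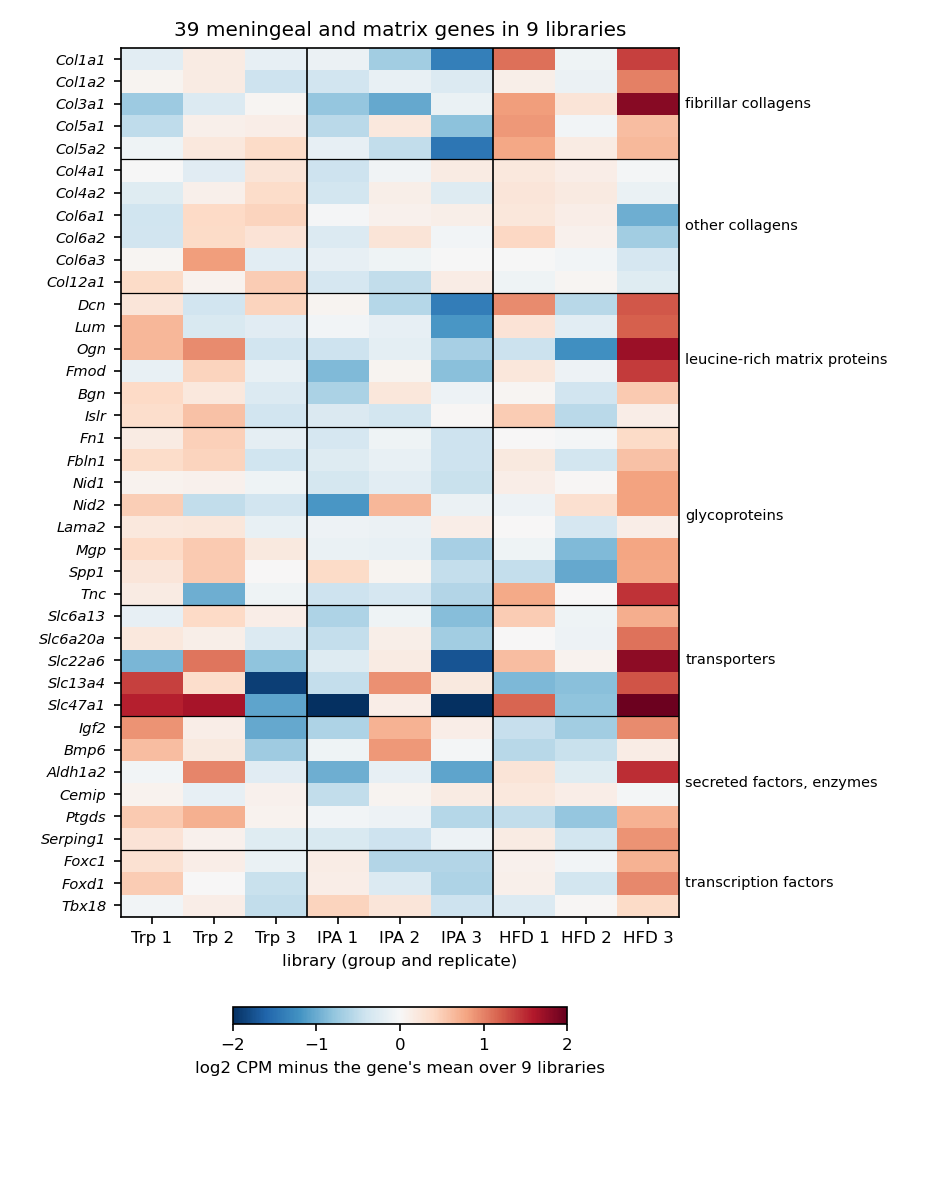
Level of each of the 39 genes (rows, grouped by role) in each of the 9 libraries (columns), as log2 CPM minus the gene's mean over all libraries; colours saturate at -2 and 2. HFD 3 is the highest library for 23 genes and IPA 3 the lowest for 14.

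In IPA against HFD, levels of most of the 39 genes were lower in IPA, and none was called. The fold change was below 1 for 31 of 39 members (79.5%), against 51.1% of all genes, and their median log2 fold change was -0.47, against -0.01 for all genes. The calls were 0 of 39 members by edgeR, where 0.00535% of all genes (1 of 18690) was called, and the smallest adjusted p of a member was 0.211. At an unadjusted p under 0.05, 14 members (35.9%) were lower, against 5.46% of all genes, and 0 were higher. These 14 were all 5 fibrillar collagens, Lum, Fmod, Fn1, Nid1, Tnc, Slc6a13, Slc6a20a, Aldh1a2 and Foxc1. IPA and HFD did not overlap for 8 members, all lower in IPA (20.5%, against 8.01% of all genes).

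The call depended on the test used. In the authors' deposited table, which calls a gene at q under 0.05 and more than 2-fold change, 3 of the 37 members tested were called, all lower in IPA: Col3a1, Col1a1 and Tnc. That table called 0.302% of its 15236 genes in this comparison. DESeq2 on the same counts also called Col3a1, Col1a1 and Tnc, and 160 genes in all (0.983% of those to which it gave an adjusted p). Without HFD 3, 29 of 39 members stayed below a fold change of 1, and the median log2 fold change was -0.26. At an unadjusted p under 0.05, 7 of 39 members were then lower, against 6.82% of all genes. Without IPA 3 that number was 6 of 39, against 3.24% of all genes, and without IPA 1 it was 9 of 39, against 4.91%. Without HFD 2 it rose to 20 of 39, against 6.03% of all genes.

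In Trp against HFD, Col3a1, Tnc and Col1a1 stood at the low end and no member was called. The fold change was below 1 for 25 of 39 members (64.1%), against 50.5% of all genes, and the median log2 fold change was -0.10, against 0.00. By edgeR 0 of 39 members were called, where 0.342% of all genes (64) were called, and the smallest adjusted p of a member was 0.213. At an unadjusted p under 0.05, 3 members (7.69%) were lower, against 5.54% of all genes, and 0 were higher. The 3 were those just named. Without HFD 3, 1 of 39 members was lower and 4 of 39 were higher (6.81% and 7.82% of all genes). Without HFD 2, 8 of 39 were lower (5.21% of all genes). Groups did not overlap for 1 member lower in Trp, Col3a1, where 7.43% of all genes did so, and for 1 higher, Col12a1, where 8.06% of all genes did so. DESeq2 called Col3a1 alone among the members and 291 genes in all (1.72% of those to which it gave an adjusted p). The authors' deposited table called 0 of 36 members tested and 0.424% of its 15337 genes. Without HFD 3 the median turned to 0.08 and 15 of 39 members were below a fold change of 1. With HFD 3 kept, the median was 0.05 over the 21 members with a mean FPKM of at least 1. By limma it was 0.11 to 0.15 over 22 members, against 0.07 to 0.08 for all genes. The sign of this median thus depended on that library and on the members kept. The part of the method was not tested apart from the members kept.

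The comparison of Trp with IPA uses the HFD libraries only through the shared filter on low counts, scaling and estimate of spread. From its own 6 libraries alone, 38 members passed the filter, without Slc47a1, and their median log2 fold change was 0.34. Agent, dose and route all differ between these groups, so it sets regimens and not compounds against each other. The fold change was above 1 for 36 of 39 members (92.3%), against 51.9% of all genes, with a median log2 fold change of 0.35, against 0.01. By edgeR 0 of 39 members were called and 0% of all genes, and DESeq2 called 0 members and 15 genes in all (0.073%). At an unadjusted p under 0.05, 4 members were higher in Trp (10.3%, against 2.43% of all genes) and 0 lower: Col12a1, Fn1, Col5a2 and Slc6a13. Out of 39 members, that count was 1 without Trp 2 (1.92% of all genes), 1 without IPA 3 (1.96%), 7 without HFD 2 (2.46%) and 9 without HFD 3 (3.20%). Groups did not overlap for 4 members, all higher in Trp (10.3%, against 5.61% of all genes): Col5a2, Nid1, Mgp and Ptgds. The exceptions to the common sign were Nid2 at a log2 fold change of -0.03, Bmp6 at -0.19 and Tbx18 at -0.26. The comparisons with HFD share their HFD libraries, and each pair of comparisons shares a group, so their values are given side by side and are not independent of each other.

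**Figure D3:**
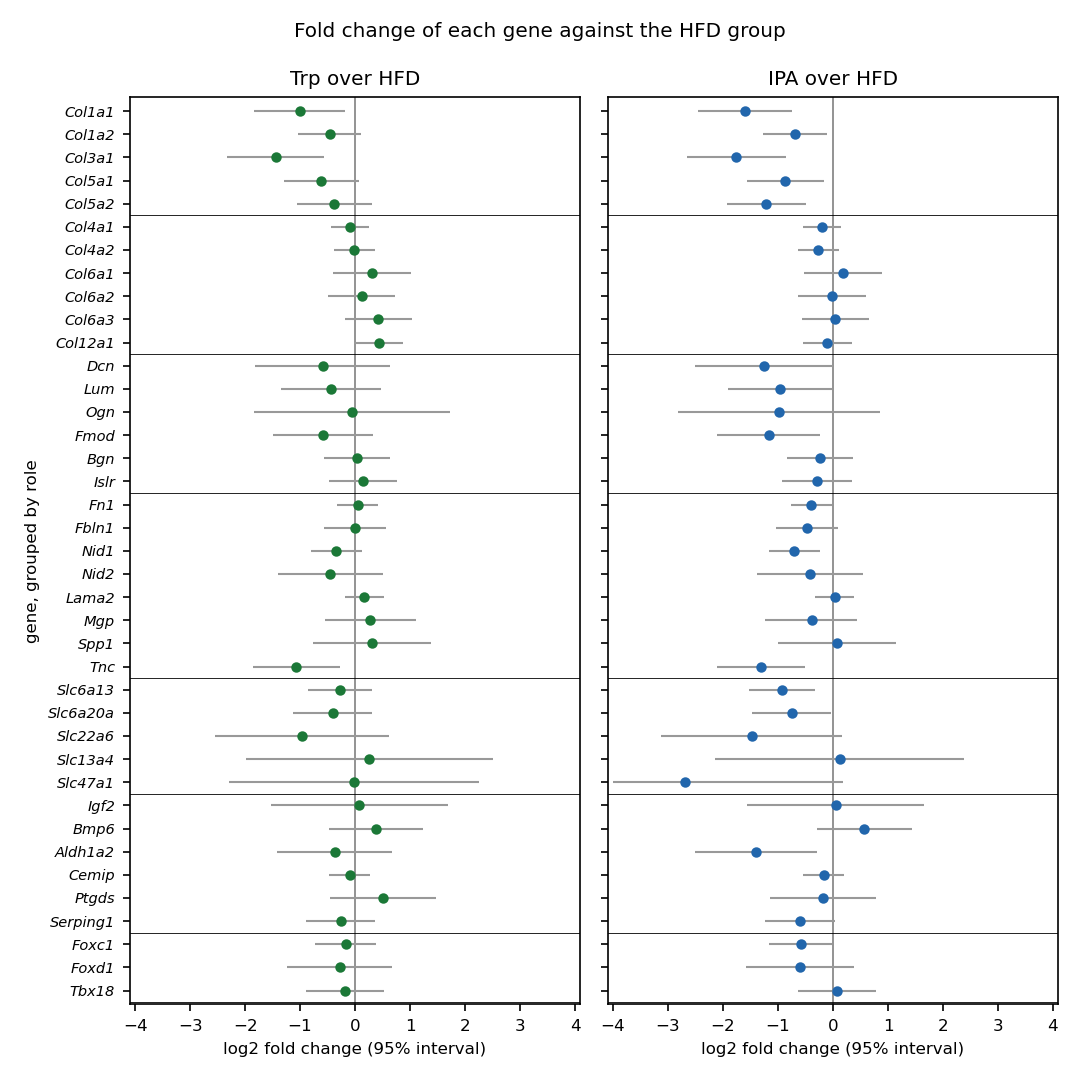
Log2 fold change of each of the 39 genes (rows, grouped by role) in Trp over HFD and in IPA over HFD, with 95% confidence intervals from edgeR's quasi-likelihood fit. The interval of Slc47a1 in IPA over HFD runs past the left edge. Of 39 genes, 25 lie below 0 in Trp over HFD and 31 below 0 in IPA over HFD, none of them called.

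The 5 fibrillar collagen genes encode the chains that fibroblasts assemble into cross-striated fibres: Col1a1 and Col1a2 for type I, Col3a1 for type III, and Col5a1 and Col5a2 for the type V fibres that nucleate them. All 5 had levels lower than HFD in both other groups, with a median log2 fold change of -0.61 for Trp against HFD and of -1.21 for IPA against HFD, and none was called. They were low throughout, at mean FPKM of 0.183 to 0.963, and the smallest count of each gene in any library lay between 18 and 168. Col3a1 and Col5a2 are neighbours on chromosome 1.

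Col3a1 was at 0.701, 0.981 and 1.23 CPM in Trp libraries 1 to 3, at 0.675, 0.567 and 1.09 CPM in IPA, and at 2.16, 1.43 and 4.34 CPM in HFD. Every HFD library lay above every Trp and IPA library. The log2 fold change was -1.76 ± 0.41 (SE) for IPA against HFD (edgeR adjusted p = 0.211) and -1.44 ± 0.40 for Trp against HFD (edgeR adjusted p = 0.213). DESeq2 gave adjusted p = 0.0117 for IPA and 0.0424 for Trp, and the authors' deposited table gave a log2 fold change of -1.76 with q = 0.0121 for IPA and q = 0.0594 for Trp. Without HFD 3 the log2 fold change was -1.20 for IPA and -0.89 for Trp.

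Col1a1 was at 1.32, 1.72 and 1.37 CPM in Trp, at 1.43, 0.936 and 0.567 CPM in IPA, and at 3.36, 1.45 and 4.06 CPM in HFD. IPA 1 and HFD 2 were nearly equal, from 57 and 72 counts, so IPA lay below HFD by a narrow gap, and Trp overlapped HFD. Col1a1 had a log2 fold change of -1.60 ± 0.39 for IPA against HFD (edgeR adjusted p = 0.250) and -1.0 ± 0.38 for Trp against HFD (edgeR adjusted p = 0.343). For IPA, DESeq2 gave adjusted p = 0.0146 and the authors' deposited table q = 0.0238 at a log2 fold change of -1.60. Without HFD 3 the log2 fold change was -1.30 for IPA and -0.71 for Trp.

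Col5a2 was at 1.17, 1.44 and 1.63 CPM in Trp, at 1.10, 0.863 and 0.425 CPM in IPA, and at 2.16, 1.39 and 1.97 CPM in HFD. IPA lay below both other groups without overlap, while Trp and HFD overlapped. Col5a2 gave -1.21 ± 0.33 on the log2 scale for IPA against HFD (edgeR adjusted p = 0.296) and 0.83 ± 0.33 for Trp against IPA (edgeR adjusted p = 0.987).

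Col1a2, the most abundant of the 5 by FPKM, was at 5.71, 6.13 and 4.07 CPM in Trp, at 4.20, 4.90 and 4.51 CPM in IPA, and at 5.95, 5.02 and 11 CPM in HFD. HFD 3 stood far above the other 8 libraries, which lay within 4.07 to 6.13 CPM. Its log2 fold change of -0.69 ± 0.27 for IPA against HFD (edgeR adjusted p = 0.431) was -0.27 without HFD 3, and that of -0.46 ± 0.26 for Trp against HFD (edgeR adjusted p = 0.557) was -0.05. Col5a1 was at 1.30, 2.01 and 2.05 CPM in Trp, at 1.28, 2.17 and 1.04 CPM in IPA, and at 3.47, 1.82 and 2.90 CPM in HFD, with HFD 2 inside the range of the other groups. Its log2 fold change was -0.87 for IPA and -0.61 for Trp against HFD.

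**Figure D4:**
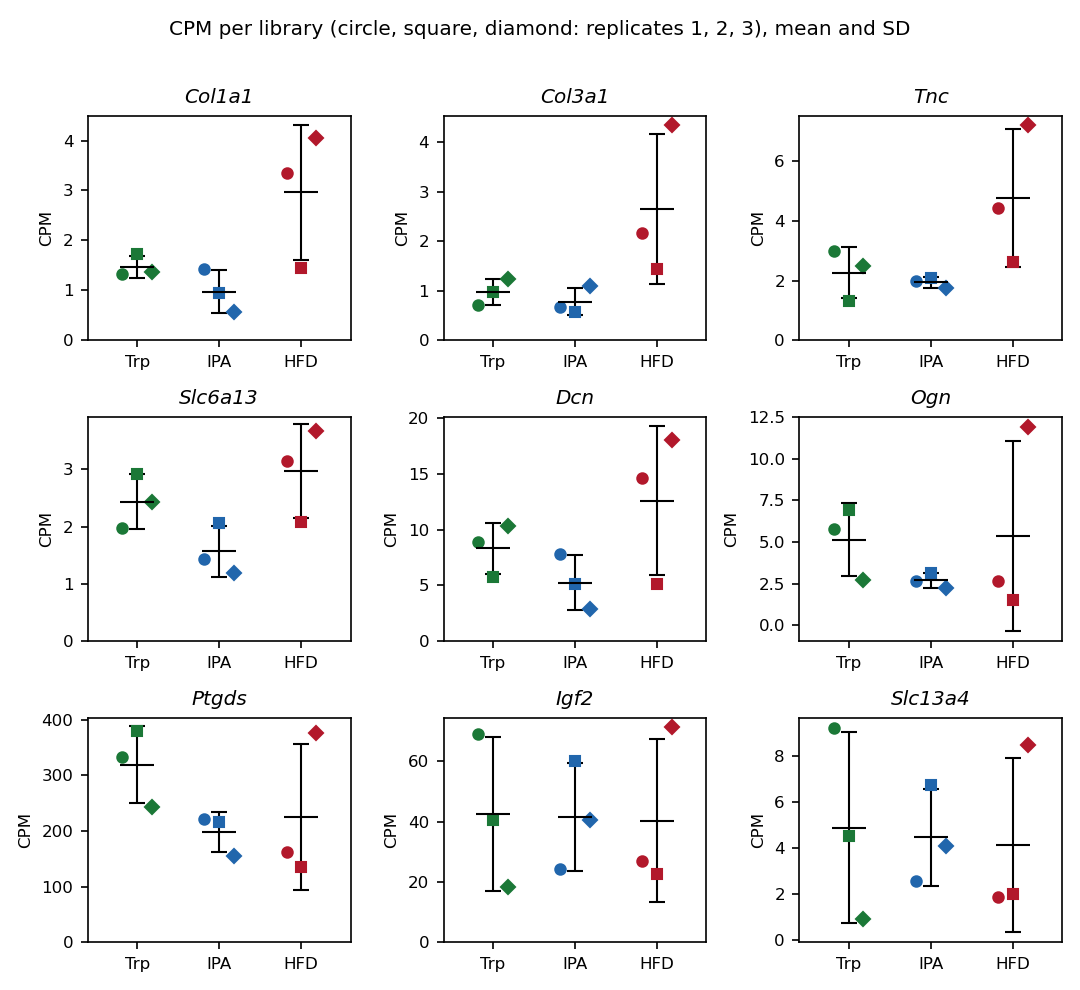
CPM of selected members in each library, by group (Trp, IPA, HFD from left to right); circle, square and diamond mark replicates 1, 2 and 3, and bars give the mean and SD of 3 libraries. Col3a1 lies at 0.567 to 1.23 CPM in the Trp and IPA libraries and at 1.43 to 4.34 CPM in the HFD libraries.

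Start-site sequence was available for 29 of the 39 genes in RefSeq's promoter table (GRCm38.p6), and Col1a1 is not among them. The 250 bases before the start are shown for Col3a1, Col1a2 and Tnc, matrix genes whose levels were lower in IPA than in HFD without overlap. Capitals mark matches to promoter and T-box motifs, spelled out after the sequences, and no marked matches overlap. Col3a1 and Tnc held a match to the letters TATAAA and Col1a2 did not:
Col3a1 (chr1:45311288-45311537, plus strand): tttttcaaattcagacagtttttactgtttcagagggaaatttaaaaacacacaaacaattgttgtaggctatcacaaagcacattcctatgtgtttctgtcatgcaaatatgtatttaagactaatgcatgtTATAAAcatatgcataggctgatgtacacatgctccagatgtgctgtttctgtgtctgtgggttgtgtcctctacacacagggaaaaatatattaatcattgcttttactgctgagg
Col1a2 (chr6:4505368-4505617, plus strand): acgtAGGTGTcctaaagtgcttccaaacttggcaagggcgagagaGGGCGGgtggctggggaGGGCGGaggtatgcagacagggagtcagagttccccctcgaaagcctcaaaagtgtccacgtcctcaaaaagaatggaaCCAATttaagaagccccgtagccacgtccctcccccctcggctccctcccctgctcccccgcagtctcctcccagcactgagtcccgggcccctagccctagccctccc
Tnc (chr4:64047016-64047265, minus strand): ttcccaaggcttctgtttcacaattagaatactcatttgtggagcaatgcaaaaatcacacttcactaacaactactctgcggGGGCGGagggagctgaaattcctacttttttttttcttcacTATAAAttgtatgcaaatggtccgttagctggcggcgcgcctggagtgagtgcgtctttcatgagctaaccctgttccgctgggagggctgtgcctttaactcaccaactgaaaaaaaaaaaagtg

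These motifs and a forkhead motif, 5 in all, were searched on both strands in the whole 300-base windows, from 250 bases before to 50 after the start. A match to TATAAA, the letters of the TATA box, was in 5 of 29 members (17.2%, against 14.2% of all 27025 promoters): Col3a1, Tnc, Ogn, Spp1 and Cemip. In Col3a1 and Tnc the match began 117 and 126 bases before the annotated start, and whether it acts as a TATA box was not tested. The GC box, searched as GGGCGG, was in 16 of 29 (55.2%, against 35.9%). The CCAAT box was searched by those letters and found in 12 (41.4%, against 37.9%). For the T-box core, searched as AGGTGT, 4 members matched (13.8%, against 13.9%). The forkhead motif, searched as GTAAACA, was in 1, Col6a1 (3.45%, against 3.55%). These matches describe letters in a window and say nothing of a factor's binding.

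The other 6 collagen genes form networks and filaments instead of fibres, or coat fibres: Col4a1 and Col4a2 for the type IV network of basement membranes, Col6a1, Col6a2 and Col6a3 for the beaded filaments of type VI, and Col12a1 for a fibre-associated collagen. Their median log2 fold change was 0.21 for Trp against HFD, -0.06 for IPA against HFD and, with Trp set against IPA, 0.20, and 0 of 6 had an unadjusted p under 0.05 against HFD. Col4a1 varied least of them, 1.6-fold between its lowest library at 10.0 CPM (IPA 1) and its highest at 16 CPM (Trp 3). Col4a1 and Col4a2 lie head to head on chromosome 8 with starts 21 bases apart in the RefSeq table, so their 300-base windows share 78 bases.

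Col12a1 was at 4.91, 3.92 and 5.30 CPM in Trp, at 2.95, 2.64 and 4.13 CPM in IPA, and at 3.51, 3.83 and 3.13 CPM in HFD. Trp lay above HFD without overlap, by as little as 3.92 against 3.83 CPM, and overlapped IPA. Against HFD, Trp gave a log2 fold change of 0.43 ± 0.20 (edgeR adjusted p = 0.452), and against IPA one of 0.54 ± 0.20 (edgeR adjusted p = 0.987).

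Col6a1, the most abundant of the 6 by FPKM, was at 8.65, 15.1 and 15.6 CPM in Trp, at 11.3, 12.1 and 12.5 CPM in IPA, and at 13.3, 12.5 and 5.79 CPM in HFD. Here HFD 3 was the lowest library of the 9, as it also was for Col6a2 at 3.37 CPM and Col6a3 at 1.21 CPM. Type VI chains were thus low in the library where type I and III chains were high. Col6a1 gave a log2 fold change of 0.31 ± 0.31 for Trp (edgeR adjusted p = 0.774) and 0.18 ± 0.31 for IPA against HFD (edgeR adjusted p = 0.880). Without HFD 3 these values were 0.02 for Trp and -0.11 for IPA.

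Of the 6 leucine-rich repeat proteins of the matrix, 5 are the small proteoglycans and relatives that bind collagen fibrils (Dcn, decorin; Lum, lumican; Ogn, osteoglycin; Fmod, fibromodulin; Bgn, biglycan) and the other is Islr, a marker of mesenchymal stromal cells. All 6 were lower in IPA than in HFD by fold change, with a median log2 of -0.97. All 6 were higher in Trp than in IPA, with a median of 0.55. Against HFD, Trp gave a median of -0.24, with 4 below and 2 above 0.

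Dcn was at 8.92, 5.79 and 10.3 CPM in Trp, at 7.83, 5.10 and 2.86 CPM in IPA, and at 14.6, 5.10 and 18.0 CPM in HFD. HFD 1 and HFD 3 were above all Trp and IPA libraries, while HFD 2 equalled IPA 2. Dcn had a log2 fold change of -1.25 ± 0.54 for IPA against HFD (edgeR adjusted p = 0.480) and -0.59 ± 0.52 for Trp against HFD (edgeR adjusted p = 0.744). Without HFD 3 they were -0.90 for IPA and -0.24 for Trp. Lum, next to Dcn on chromosome 10, had a log2 fold change of -0.96 and Fmod one of -1.16 for IPA against HFD, each with HFD 3 as its highest library. Ogn ranged 7.86-fold, from 1.51 CPM in HFD 2 to 11.9 CPM in HFD 3, so its extremes fell within the HFD group. Bgn and Islr varied less, at 5.20 to 11.6 CPM and 3.81 to 8.33 CPM over the 9 libraries, with log2 fold changes of -0.23 for Bgn and -0.29 for Islr in IPA against HFD.

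The 8 glycoproteins and other matrix proteins include adhesive and basement membrane proteins (Fn1, fibronectin; Fbln1, fibulin 1; Nid1 and Nid2, the nidogens that link laminin to type IV collagen; Lama2, a laminin chain), the calcification inhibitor Mgp, the phosphoprotein Spp1 (osteopontin) and tenascin C (Tnc), a large glycoprotein of remodelling matrix. Of these, 6 had a fold change below 1 in IPA against HFD, and Tnc, Nid1 and Fn1 had an unadjusted p under 0.05. Lama2 varied 1.49-fold over all 9 libraries, the narrowest range of the 38 members detected in every library.

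Tnc was at 2.98, 1.32 and 2.5 CPM in Trp, at 1.98, 2.09 and 1.75 CPM in IPA, and at 4.45, 2.64 and 7.24 CPM in HFD. IPA lay below HFD without overlap, and Trp 1 was above HFD 2. Tnc had a log2 fold change of -1.30 ± 0.36 for IPA against HFD (edgeR adjusted p = 0.316) and -1.07 ± 0.36 for Trp against HFD (edgeR adjusted p = 0.292). For IPA, DESeq2 gave adjusted p = 0.0313 and the authors' deposited table q = 0.0161 at a log2 fold change of -1.30. Without HFD 3 its log2 fold change was -0.87 for IPA and -0.64 for Trp.

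Nid1 was at 3.66, 3.69 and 3.26 CPM in Trp, at 2.73, 3.01 and 2.55 CPM in IPA, and at 3.83, 3.53 and 6.10 CPM in HFD. All 3 IPA libraries were below all 6 others. For IPA against HFD its log2 fold change was -0.70 ± 0.22 (edgeR adjusted p = 0.330), and -0.41 without HFD 3. Fn1 was at 26.5, 32.8 and 20.9 CPM in Trp, at 18.7, 22.4 and 17.8 CPM in IPA, and at 23.6, 22.9 and 31.0 CPM in HFD. IPA lay below HFD by a narrow gap and overlapped Trp, with a log2 fold change of -0.40 ± 0.17 against HFD (edgeR adjusted p = 0.468) and of 0.44 ± 0.17 for Trp against IPA (edgeR adjusted p = 0.987).

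Mgp, the most abundant of the 8 by FPKM, was at 11.3, 12.2 and 9.75 CPM in Trp, at 7.80, 7.66 and 5.39 CPM in IPA, and at 8.0, 4.62 and 14.8 CPM in HFD. Trp lay above IPA without overlap, and the HFD libraries lay on both sides of these groups. Mgp had a log2 fold change of 0.67 ± 0.37 for Trp against IPA (edgeR adjusted p = 0.987), 0.28 for Trp against HFD and -0.39 for IPA against HFD. Leaving out HFD 3 gave 0.81 for Trp and 0.14 for IPA against HFD. Fbln1 and Nid2 had log2 fold changes of -0.47 and -0.42 in IPA against HFD, and Nid2 rested on as few as 19 counts. Spp1, like Mgp, had its lowest library (HFD 2, 5.32 CPM) and its highest (HFD 3, 18.7 CPM) in the HFD group.

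The 5 transporters move solutes across the meningeal and vascular borders: Slc6a13 carries GABA and taurine, Slc6a20a proline, Slc22a6 organic anions, Slc13a4 sulfate and Slc47a1 organic cations. Their median log2 fold change was -0.92 for IPA against HFD, -0.28 for Trp against HFD and 0.52 for Trp against IPA. Slc6a13 was at 1.97, 2.92 and 2.44 CPM in Trp, at 1.43, 2.07 and 1.20 CPM in IPA, and at 3.15, 2.08 and 3.68 CPM in HFD. IPA 2 and HFD 2 were nearly equal, so IPA lay below HFD only by that gap. Slc6a13 had a log2 fold change of -0.92 ± 0.28 for IPA against HFD (edgeR adjusted p = 0.327) and 0.64 ± 0.28 for Trp against IPA (edgeR adjusted p = 0.987).

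Slc6a20a, the most abundant transporter by FPKM, was at 5.28, 4.95 and 3.75 CPM in Trp, at 3.25, 4.93 and 2.81 CPM in IPA, and at 4.54, 4.26 and 9.73 CPM in HFD. Only HFD 3 exceeded 5.28 CPM, and without it the log2 fold change against HFD was -0.26 for IPA, against -0.75 ± 0.33 with it (edgeR adjusted p = 0.475), and 0.08 for Trp, against -0.40 with it. Slc47a1 was near the limit of detection, with 31, 27 and 3 counts in Trp, 0, 8 and 0 counts in IPA, and 21, 4 and 34 counts in HFD. The groups overlapped, and neither comparison with HFD nor that of Trp with IPA was called. Slc22a6 had the widest range of the members detected in every library, 13.4-fold between 0.236 CPM in IPA 3 and 3.16 CPM in HFD 3, and rested on 10 to 133 counts. Slc13a4 ranged 9.96-fold within the Trp group alone, from 0.927 CPM in Trp 3 to 9.23 CPM in Trp 1.

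The 6 secreted factors and enzymes are the growth factors Igf2 and Bmp6, the retinoic acid synthesising enzyme Aldh1a2, the hyaluronan-degrading protein Cemip, prostaglandin D synthase (Ptgds), whose secreted form is an abundant cerebrospinal fluid protein, and the complement C1 inhibitor Serping1. Ptgds was at 333, 380 and 243 CPM in Trp, at 222, 216 and 156 CPM in IPA, and at 163, 136 and 376 CPM in HFD. Trp lay above IPA without overlap, and HFD 3 reached the level of the Trp libraries while HFD 1 and HFD 2 were low. Ptgds had a log2 fold change of 0.50 ± 0.41 for Trp against HFD (edgeR adjusted p = 0.722) and 0.69 ± 0.41 for Trp against IPA (edgeR adjusted p = 0.987). Without HFD 3 the first was 1.09 (edgeR adjusted p = 0.0722), and IPA against HFD turned to 0.40, against -0.18 with it.

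Igf2 was at 69.0, 40.5 and 18.3 CPM in Trp, at 24.2, 60.1 and 40.6 CPM in IPA, and at 26.9, 22.8 and 71.5 CPM in HFD. The spread was 3.91-fold over the libraries and nearly as wide within Trp and within HFD. It averaged 42.6 ± 25.5 CPM in Trp, 41.6 ± 17.9 CPM in IPA and 40.4 ± 27.0 CPM in HFD (SD, n = 3 each). Against HFD the log2 fold change was 0.08 for Trp (edgeR adjusted p = 0.984) and 0.05 for IPA (edgeR adjusted p = 0.987). Leaving out HFD 3 gave 0.78 for Trp and 0.74 for IPA, neither called.

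The 19 choroid plexus markers varied over the same libraries, with summed levels of 2100, 912 and 228 CPM in Trp 1 to 3, 629, 1740 and 1310 CPM in IPA 1 to 3, and 407, 327 and 1160 CPM in HFD 1 to 3. Within each group the libraries had the same order for Igf2 as for this sum, and so they had for Slc13a4 in Trp and IPA but not in HFD. None of the 19 markers was at 0. Against HFD, 18 of 19 had a fold change above 1 in Trp and all 19 in IPA (49.5% and 48.9% of all genes). Their median log2 fold changes were 0.79 and 0.97, against -0.10 and -0.47 for the 39 genes, and none was called. The part of choroid plexus RNA in these values was not tested.

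Aldh1a2 was at 1.17, 2.44 and 1.05 CPM in Trp, at 0.600, 1.08 and 0.567 CPM in IPA, and at 1.48, 1.03 and 3.49 CPM in HFD. HFD 3 and Trp 2 were the high libraries, and IPA 2 overlapped both other groups. The log2 fold change was -1.40 ± 0.50 for IPA against HFD (edgeR adjusted p = 0.394) and 1.04 ± 0.50 for Trp against IPA (edgeR adjusted p = 0.987). Bmp6 was at 9.85, 7.42 and 3.93 CPM in Trp, at 6.08, 11.9 and 6.28 CPM in IPA, and at 4.41, 4.76 and 7.17 CPM in HFD, with its lowest library in Trp and its highest in IPA. Its log2 fold change for IPA against HFD, 0.57 ± 0.38 (edgeR adjusted p = 0.632), was the highest of the 39. Serping1 ranged 2.53-fold over the libraries, and Cemip, at 5.33 to 8.71 CPM, only 1.64-fold.

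The 3 transcription factors mark meningeal mesenchyme: Foxc1, a forkhead factor that mouse meninges need to form, Foxd1, another forkhead factor, and Tbx18, a T-box factor also found in mural cells. Foxc1 was at 3.54, 3.13 and 2.62 CPM in Trp, at 3.18, 1.90 and 1.89 CPM in IPA, and at 3.06, 2.76 and 4.65 CPM in HFD. IPA 1 lay within the HFD range, while IPA 2 and IPA 3 were the lowest libraries. The log2 fold change was -0.59 ± 0.26 for IPA against HFD (edgeR adjusted p = 0.475) and -0.17 ± 0.26 for Trp against HFD (edgeR adjusted p = 0.865), and without HFD 3 it was -0.33 for IPA and 0.09 for Trp. Foxd1 rested on 12 to 39 counts and Tbx18 on 27 to 48 counts per library, and Tbx18 was highest in IPA 1 at 1.20 CPM.

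Other genes of matrix biology were taken from lists that do not contain the 39. Of all genes tested, 0.342% were called in Trp and 0.00535% in IPA against HFD, and 0% between Trp and IPA. With shares this small, 0 calls in a short list do not show that its genes were unchanged. Of 27 tested genes of collagen folding, processing and cross-linking, 0 were called in any of the 3 comparisons, with medians of -0.09 for Trp and -0.13 for IPA against HFD. The smallest p among them was that of Ppib, a prolyl isomerase of collagen folding, at a log2 fold change of -0.31 for IPA against HFD (edgeR adjusted p = 0.332). With Trp set against HFD, Pcolce2, an enhancer of procollagen processing, had the smallest p, at 1.13 (edgeR adjusted p = 0.342). Of 18 tested proteases and inhibitors 0 were called, with medians of -0.03 and -0.17. Of 21 tested genes of the TGF-beta pathway, which drives matrix synthesis, 0 were called, with medians of -0.05 and -0.02.

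Of 24 further basement membrane genes 0 were called, and 17 of 24 were below a fold change of 1 in each comparison with HFD. Of all genes, 50.5% were below 1 in Trp and 51.1% in IPA. The medians of the 24 were -0.11 for Trp and -0.19 for IPA. The laminin chain gene Lama4 was at 2.04, 2.85 and 3.59 CPM in Trp, at 3.10, 2.54 and 2.27 CPM in IPA, and at 4.62, 5.73 and 4.82 CPM in HFD. Both other groups lay below HFD without overlap, at a log2 fold change of -0.84 for Trp (edgeR adjusted p = 0.171) and -0.94 for IPA (edgeR adjusted p = 0.210). Unlike the fibrillar collagens, its highest library was HFD 2. Of 38 tested genes from a second list of meningeal markers 0 were called. Against HFD, 29 in Trp and 30 in IPA were below a fold change of 1 (50.5% and 51.1% of all genes), with medians of -0.18 and -0.20.

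**Figure D5:**
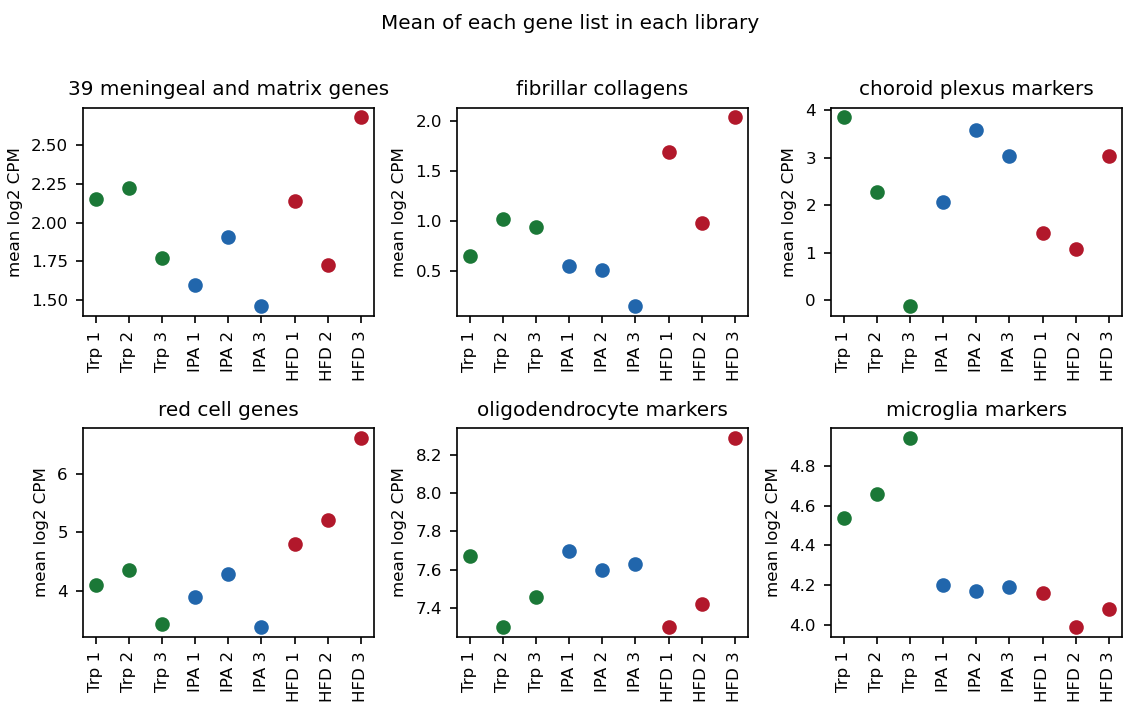
Mean log2 CPM (vertical axes, which do not start at 0) in each of the 9 libraries for 6 gene lists, 1 list a panel, with Trp, IPA and HFD libraries from left to right. The 39 genes average 2.05 in Trp, 1.66 in IPA and 2.18 in HFD, and HFD 3 is the highest library at 2.68.

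Markers of vessel cells, which share basement membrane collagens with fibroblasts, were set beside these. Of 17 endothelial markers 15 had a fold change below 1 in IPA against HFD (9 at an unadjusted p under 0.05), with a median log2 of -0.30, where 51.1% of all genes were below 1 and 5.46% were lower at an unadjusted p under 0.05. Likewise, of 16 mural cell markers 15 did so (7 at an unadjusted p under 0.05), with a median of -0.41. In Trp against HFD the median was -0.18 for the endothelial and -0.12 for the mural list. None of these genes was at 0 in any library, and 0 were called. The endothelial list summed to 409 to 446 CPM in Trp, 365 to 392 CPM in IPA and 382 to 457 CPM in HFD. The mural list summed to 157 to 207 CPM in Trp, 143 to 164 CPM in IPA and 182 to 236 CPM in HFD. The vessel markers and the 39 genes thus had medians below 0 in the same comparison, and the part of vessel content in the collagen values was not tested.

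Among the other marker lists, microglial genes alone held calls: 4 of 14 rose in Trp against HFD (0.342% of all genes were called), among them Ctss, a lysosomal protease (log2 fold change 1.10, edgeR adjusted p = 0.0049), and C1qb, a complement chain (0.78, edgeR adjusted p = 0.0139). All 14 had a fold change above 1 in that comparison. Spp1, which activated microglia can also express, was at 12.9, 15.7 and 10.9 CPM in Trp, at 14.3, 11.3 and 7.82 CPM in IPA, and at 7.88, 5.32 and 18.7 CPM in HFD, with a log2 fold change of 0.31 for Trp against HFD (edgeR adjusted p = 0.861).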

How the data were processed

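RNA was measured in 9 libraries of 3 mice per group. Polyadenylated RNA was copied with random hexamers, per the labels' protocols, and these describe no strand marking, so reads of overlapping or antisense genes cannot be told apart. StringTie 2.1.3b and the build mm10 are named in the submitters' processing notes; aligner, counter and annotation are not. The deposited table holds raw counts per gene and library, FPKM computed by the authors, and, per the file headers, the authors' log2 fold change, p-value and q-value for IPA and for Trp against HFD. All library columns were mapped through the labels, with 0 left over.

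Counts were analysed with edgeR 4.0.16 in R 4.3.3: filterByExpr with a minimum count of 10, TMM scaling, a robust quasi-likelihood fit of 1 mean per group over all 9 libraries, two-sided tests, Benjamini-Hochberg adjustment over all 18690 genes and a threshold of 0.05. SE and 95% intervals come from that fit. Means of log2 CPM used a prior count of 2. The labels give 3 mice per group. Each p-value sets a difference of group means against the spread between mice within groups, estimated over all 9 libraries. The limit of 3 counts covers counting error only, while the SE and intervals of the fit include the spread between mice.

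Named members are the 6 with the smallest unadjusted p per comparison, the most abundant of each role group, and Col1a1, Col3a1, Dcn, Igf2, Ptgds and Foxc1; other members are named for their range or place beside these, chosen after their values were seen. Members, lists and tests were chosen with earlier results of these data known, and the hippocampal marker list was added after the table was seen. Alternatives were DESeq2 1.42.0, limma 3.58.1 on log2 FPKM, other scalings and filters, only the libraries compared, a replicate block and leaving out each library. The procedure was tested on simulated data. From each other list the rule takes the genes that passed or, where fewer than 2 did, the 2 with the smallest p; the text names only part of these, and some are not reported here. Promoter sequences are RefSeq's on GRCm38.p6; the build of the table's own coordinates is not settled, so none is printed. Python 3.11.15 with matplotlib 3.10.9 drew the figures.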

Additional observations from a re-analysis of the deposited data

How the results depend on the processing

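With edgeR, 0 of 39 members were called in each comparison under both other scalings and with no filter. The same held with a block and with each library left out. With only the libraries compared, 0 of 39 were called for Trp against HFD, and 0 of 38 in each comparison that includes IPA. None was called of the 21 that had a mean FPKM of at least 1, or of the 22 that entered limma on log2 FPKM. Col3a1, Col1a1 and Tnc are in neither set, so these settings did not test them. DESeq2 called 1 for Trp and 3 for IPA against HFD, and 0 between Trp and IPA. In edgeR an unadjusted p under 0.05 held for 3, 14 and 4 members in these comparisons. The number of all genes called moved more. For Trp against HFD it was 64, and 291 by DESeq2, 97 without the filter, 8 from only the 6 libraries compared, 119 at an adjusted p under 0.1, and 13 to 323 when each library was left out, the highest without HFD 3. For IPA against HFD it was 1, and 160, 6, 2 and 2 under the same settings, and 0 to 52 with a library left out, again highest without HFD 3. For Trp against IPA it was 0, and 15 by DESeq2, 3 without the filter, 1 at a mean FPKM of at least 1, 2 by limma with each of 3 pseudocounts, and 0 to 1 with a library left out. The cause was not tested.

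Correlations of deviations from the group means were -0.20 to 0.05 between same-numbered libraries of different groups and -0.14 to 0.26 between other-numbered ones. With 3 libraries per group these values cannot settle whether the numbers pair the libraries. With the replicate number as a block, 23, 0 and 0 genes and 0 members were called.

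The sign of 15 gene values turned when 1 library was left out, all at adjusted p above the threshold. Over the left-out libraries, the log2 fold change for Trp against HFD ranged over -0.46 to 0.78 for Igf2, -0.04 to 0.81 for Mgp, -0.31 to 0.09 for Foxc1 and -0.61 to 0.08 for Slc6a20a. For IPA against HFD it ranged over -0.31 to 0.74 for Igf2, -0.71 to 0.14 for Mgp, -0.11 to 0.38 for Col6a1 and -0.45 to 0.40 for Ptgds. For Trp against IPA it ranged over -0.50 to 0.40 for Igf2 and -0.02 to 0.36 for Col6a1. The median of the members ranged over -0.31 to 0.08, -0.71 to -0.26 and 0.28 to 0.48 in the 3 comparisons. For Trp against HFD it was 0.11 to 0.15 by limma over 22 members, against 0.07 to 0.08 for all genes. Members at few counts, such as Slc47a1, are limited by depth.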
